A study of Mus musculus with 3 samples.

Results

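The growth hormone and IGF1 axis of the liver was followed through 10 genes chosen by name, namely the growth hormone receptor gene Ghr, its feedback and repressor genes Socs2, Cish and Bcl6, the ligand gene Igf1, and the binding protein genes Igfals, Igfbp1, Igfbp2, Igfbp3 and Igfbp4. All 10 were found once each among the 23850 rows of the 3 deposited tables, and none of their 30 values was missing. RNA depleted of ribosomal RNA was sequenced from the liver of mice aged 16 weeks on a mixed C57BL6J/FVB background. Ercc1 DR is the library of Ercc1 delta/- mutants under diet restriction, Ercc1 AL that of Ercc1 delta/- mutants fed ad libitum, and wt AL that of wild-type mice fed ad libitum. Both mutant libraries thus carry the same pair of Ercc1 alleles and differ in diet, and both AL libraries share the diet and differ in genotype. A restricted wild type is not part of the comparison. Each group is 1 library, and whether it holds RNA of 1 animal or several, of which sex, and at what hour or how long after a meal the liver was taken is not given in the labels.

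Growth hormone from the pituitary binds its receptor on hepatocytes, the receptor-bound kinase JAK2 phosphorylates the transcription factor STAT5, and STAT5 switches on Igf1, Igfals, Socs2 and Cish. SOCS2 and CISH bind activated cytokine receptors through their SH2 domains and dampen the signal, and BCL6 is a transcriptional repressor that can occupy STAT5-type elements. IGF1 made in the liver circulates bound to binding proteins, much of it in a complex of IGF1, IGFBP3 and the acid-labile subunit encoded by Igfals. IGFBP1 is restrained by insulin and responds to fasting. Mice with impaired ERCC1, a subunit of a DNA repair endonuclease, are known as small and progeroid with a dampened growth hormone axis. Restricted feeding is known to lower circulating IGF1 in rodents. The comparisons ask how genotype under free feeding, diet within the mutant, and the sum of both go with expression of the axis.

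Values are FPKM, a level per transcript length and library size. The libraries held 10887 rows of at least 1 FPKM in Ercc1 DR, 11861 in Ercc1 AL and 10436 in wt AL, and the fragments implied by the deposited intervals, with each bound taken as 2 SD, came to 25.03 M, 25.1 M and 19.0 M in that order. With 1 library per group no test between groups, SD or p-value can be given, and no comparison below could be checked in replicates. The deposited interval of each FPKM covers counting and assignment of fragments in that library only. Over the 30 axis values its half-width was 1.36% to 19.1% of its midpoint, which corresponds to 21600 to 109 fragments. The deposited FPKM lay above its own interval in 11 of the 30 values, in 5 of the genes, by a factor to the midpoint of at most 1.17. Over the 9109 rows with at least 1 FPKM in every library the median log2 FPKM ratio was 0.49 for Ercc1 AL over wt AL, 0.33 for Ercc1 DR over Ercc1 AL and 0.78 for Ercc1 DR over wt AL. Log2 ratios below are of FPKM + 1 after this median was set to 0, unless called as deposited, and a gene is counted as higher or lower at a ratio of at least 2-fold. The pseudocount understates ratios of low genes. The targeted gene Ercc1 stood at 0.475 FPKM in Ercc1 DR, 0.573 in Ercc1 AL and 0.461 in wt AL, overlapping intervals that sum mutant and intact transcripts alike and so do not check the genotype.

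At the receptor, the restricted mutant had the lowest level. Ghr (chromosome 15, 3317760 to 3583230, minus strand) had 39.1 FPKM in Ercc1 DR (interval 37.4 to 40.9), 57.6 in Ercc1 AL (56.3 to 59.9) and 59.6 in wt AL (57.8 to 62.1). Intervals of the AL libraries overlapped as deposited, and that of Ercc1 DR lay below both. The log2 ratio was -0.87 for Ercc1 DR over Ercc1 AL and -0.53 for Ercc1 AL over wt AL. For Ercc1 DR over wt AL it was -1.36, and -0.60 as deposited, so that Ghr is counted as lower there only after rescaling. In bulk liver, fewer cells that express a gene and less of its RNA per cell cannot be told apart.

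The feedback inhibitors Socs2 and Cish did not move alike. Socs2 (chromosome 10, 95411490 to 95416857, minus strand) had 19.7 FPKM in Ercc1 DR (19.0 to 20.7), 5.88 in Ercc1 AL (5.49 to 6.28) and 6.50 in wt AL (6.05 to 6.96). Cish (chromosome 9, 107296689 to 107301961, plus strand) had 4.94 FPKM in Ercc1 DR (4.25 to 5.02), 0.981 in Ercc1 AL (0.791 to 1.13) and 9.73 in wt AL (8.47 to 9.59). The restricted mutant was thus the high library for Socs2, while the wild type was the high library and the freely fed mutant by far the low one for Cish. After rescaling, Cish in Ercc1 AL was at 0.0716 times its wt AL level without the pseudocount. With the pseudocount, which draws this low value in, its log2 ratio was -2.78, while Socs2 had a log2 ratio of -0.55 in that comparison. Both were higher in Ercc1 DR than in Ercc1 AL, at log2 ratios of 1.36 for Cish and 1.29 for Socs2. Against wt AL, Ercc1 DR had a log2 ratio of -1.53 for Cish (-0.85 as deposited) and of 0.76 for Socs2 (1.47 as deposited). The call of both against the wild type therefore depends on the scaling, and their opposite directions do not.

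Bcl6 (chromosome 16, 23965052 to 23988612, minus strand) was the axis gene with the lowest ratio in the restricted mutant. It had 1.35 FPKM in Ercc1 DR (1.16 to 1.48), 5.56 in Ercc1 AL (5.03 to 5.68) and 5.01 in wt AL (4.50 to 5.22). Ercc1 DR stood apart from both AL libraries, which overlapped as deposited. The log2 ratio was -1.72 for Ercc1 DR over Ercc1 AL and -1.90 for Ercc1 DR over wt AL, and both calls also hold as deposited, at -1.48 and -1.36. For Ercc1 AL over wt AL it was -0.29 after rescaling and 0.13 as deposited, so no direction is given. Exons of Cish overlap those of the antisense genes Gm17040 and Gm17041, and exons of Bcl6 those of Gm37419 on the other strand in the GENCODE annotation. Whether reads were counted by strand is not stated, and reads of such partners may be included.

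**Figure D1:**
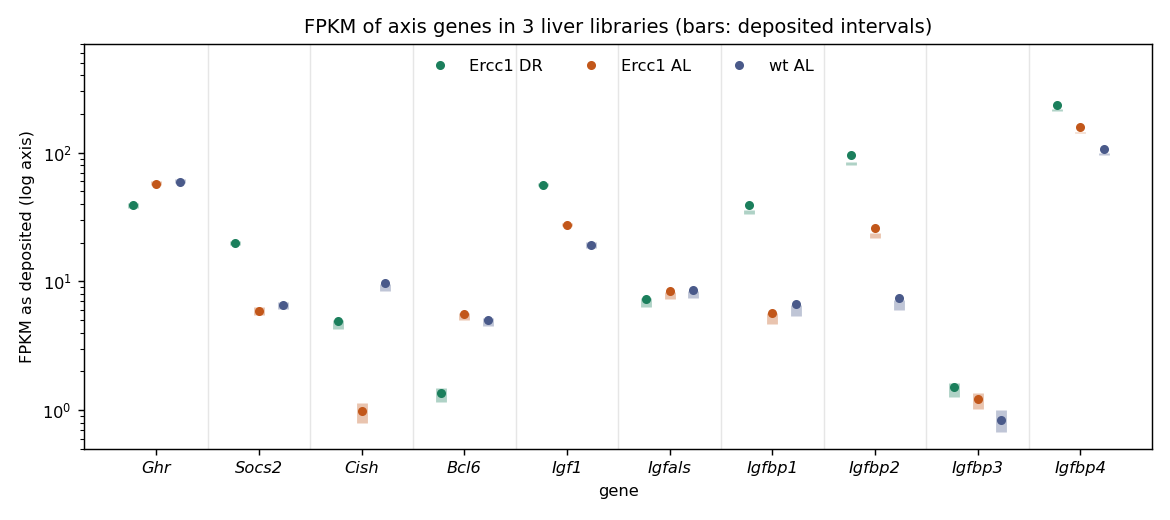
FPKM as deposited (log axis) of the 10 axis genes in Ercc1 DR, Ercc1 AL and wt AL, with points for the FPKM and bars for the deposited interval of that library. Cish is lowest in Ercc1 AL at 0.981 FPKM, Bcl6 is lowest in Ercc1 DR at 1.35 FPKM, and Igfbp2 differs between all libraries at 96.0, 26.2 and 7.44 FPKM, while several points lie above their bars.

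Promoter sequence is shown for Cish and Bcl6, the genes of the feedback group with the largest differences, because STAT5 and BCL6 are known to bind elements of the same type. RefSeq windows of GRCm38.p6, from 250 bases before to 50 after an annotated start site, were at hand for 9 of the 10 genes in 14 windows. Socs2 had no window and was not searched. They were searched on both strands for TTCNNNGAA, an element that reads the same on either strand, and matches are in capitals. The Cish window is chr9:107296409-107296708 on the plus strand, and the Bcl6 windows, at an upstream and a downstream start site, are chr16:23988803-23989102 and chr16:23981234-23981533 on the minus strand.
Cish: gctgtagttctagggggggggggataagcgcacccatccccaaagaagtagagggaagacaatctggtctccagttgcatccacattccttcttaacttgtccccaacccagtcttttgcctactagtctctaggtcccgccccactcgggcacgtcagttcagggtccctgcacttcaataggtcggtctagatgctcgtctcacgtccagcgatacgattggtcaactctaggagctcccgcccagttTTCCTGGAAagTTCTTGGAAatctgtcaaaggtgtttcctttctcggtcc
Bcl6 upstream start: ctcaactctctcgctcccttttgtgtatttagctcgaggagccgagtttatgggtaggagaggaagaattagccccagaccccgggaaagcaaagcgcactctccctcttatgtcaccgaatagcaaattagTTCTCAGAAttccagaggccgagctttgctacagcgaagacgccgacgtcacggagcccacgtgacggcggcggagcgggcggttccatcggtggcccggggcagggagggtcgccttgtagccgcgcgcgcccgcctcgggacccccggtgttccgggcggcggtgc
Bcl6 downstream start: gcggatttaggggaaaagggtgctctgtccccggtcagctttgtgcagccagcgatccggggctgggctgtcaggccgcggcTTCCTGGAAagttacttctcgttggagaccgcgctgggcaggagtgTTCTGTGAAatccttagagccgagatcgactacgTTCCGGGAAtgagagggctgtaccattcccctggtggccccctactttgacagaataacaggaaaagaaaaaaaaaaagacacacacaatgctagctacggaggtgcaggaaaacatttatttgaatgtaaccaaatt
In Cish the matches begin at bases 1 and 12 counted from the start site as 1, and are separated by 2 bases. The Bcl6 windows hold 1 match, beginning at base -118, and 3 matches, beginning at bases -168, -122 and -88. These start sites are those of RefSeq and not of the deposited rows. Both Cish matches lie before the deposited Cish row, which starts at 107296689. The upstream Bcl6 window lies outside the deposited Bcl6 row, which ends at 23988612. Igfals has 1 match in each of 2 of its 3 windows, and no match was found in the windows of Ghr, Igf1, Igfbp1, Igfbp2, Igfbp3 and Igfbp4. The Igf1 window lies inside the deposited Igf1 row, so sequence around the deposited start at 87859056 was not searched. Of 32851 RefSeq windows of this length, 8.30% hold at least 1 match, 0.457% at least 2 and 0.0335% at least 3. A match is a run of letters and not a measured binding site.

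The ligand gene was highest in the restricted mutant. Igf1 (chromosome 10, 87859056 to 87937047, plus strand) had 56.1 FPKM in Ercc1 DR (55.4 to 58.1), 27.6 in Ercc1 AL (27.1 to 28.6) and 19.2 in wt AL (18.3 to 20.2). The order of the libraries is clear of their intervals as deposited, but the general level of the libraries follows the same order. After rescaling the log2 ratio was 0.03 for Ercc1 AL over wt AL, with overlapping intervals, against 0.50 as deposited. For Ercc1 DR it was 0.67 over Ercc1 AL and 0.74 over wt AL, under 2-fold, while the ratio over wt AL as deposited was 1.50. No setting tried put Igf1 below the wild type in either mutant library. Igfals (chromosome 17, 24878770 to 24882008, plus strand) had 7.35 FPKM in Ercc1 DR (6.36 to 7.40), 8.38 in Ercc1 AL (7.28 to 8.24) and 8.53 in wt AL (7.40 to 8.47). These values are close, and after rescaling the log2 ratio was -0.46 for Ercc1 AL over wt AL, -0.46 for Ercc1 DR over Ercc1 AL and -0.88 for Ercc1 DR over wt AL. Igf1 and Igfals, both known targets of growth hormone, thus had ratios of opposite sign in both comparisons of Ercc1 DR.

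Among binding proteins, Igfbp2 differed in every comparison. Igfbp2 (chromosome 1, 72824480 to 72852471, plus strand), a binding protein known to be raised in liver when food or insulin is low, had 96.0 FPKM in Ercc1 DR (80.1 to 84.3), 26.2 in Ercc1 AL (21.6 to 23.9) and 7.44 in wt AL (5.94 to 7.22). Each FPKM lies above its own interval, and the intervals are far apart from each other. The log2 ratio was 1.23 for Ercc1 AL over wt AL, 1.51 for Ercc1 DR over Ercc1 AL and 2.79 for Ercc1 DR over wt AL. It was the only axis gene counted as higher in all 3 comparisons, after rescaling and as deposited. Its ratio for Ercc1 DR over wt AL follows from the other 2 and is no separate support. In Ercc1 DR, Igfbp2 was at 7.51 times its wt AL level after rescaling, without the pseudocount.

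Igfbp1 was high in the restricted mutant only. Igfbp1 (chromosome 11, 7197787 to 7202546, plus strand) had 39.3 FPKM in Ercc1 DR (33.3 to 36.0), 5.70 in Ercc1 AL (4.67 to 5.71) and 6.63 in wt AL (5.43 to 6.60). The AL libraries overlapped as deposited, with Ercc1 DR far above. The log2 ratio was 2.28 for Ercc1 DR over Ercc1 AL and 1.68 for Ercc1 DR over wt AL, and for Ercc1 AL over wt AL it was -0.61. Its promoter is shown because IGFBP1 is the classic gene with an insulin response element, here searched as CAAAACA on both strands, with the match in capitals in the window chr11:7197537-7197836 on the plus strand.
Igfbp1: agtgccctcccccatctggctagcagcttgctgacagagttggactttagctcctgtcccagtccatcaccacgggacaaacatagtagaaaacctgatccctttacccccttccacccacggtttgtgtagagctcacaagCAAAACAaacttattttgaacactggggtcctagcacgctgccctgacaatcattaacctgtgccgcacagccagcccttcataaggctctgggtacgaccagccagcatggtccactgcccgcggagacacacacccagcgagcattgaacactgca
The match begins at base -108. Of the same 32851 windows 6.28% hold at least 1 match, and among the axis windows only this one does.

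Igfbp3 and Igfbp4 differed little after rescaling. Igfbp3 (chromosome 11, 7206091 to 7213923, minus strand), the main carrier in blood, had 1.51 FPKM in Ercc1 DR (1.26 to 1.64), 1.22 in Ercc1 AL (1.02 to 1.36) and 0.841 in wt AL (0.678 to 0.999). Rescaled intervals overlapped in all 3 comparisons and the log2 ratios lay between -0.02 and 0.03. The deposited rows of Igfbp3 and Igfbp1 are 3544 bases apart on chromosome 11, so that neighbouring genes of 1 family differed in their ratios of Ercc1 DR over Ercc1 AL, 2.28 for Igfbp1 and -0.02 for Igfbp3. Igfbp4 (chromosome 11, 99041260 to 99052643, plus strand), a binding protein that is made widely and inhibits IGF action, had 237 FPKM in Ercc1 DR (212 to 218), 158 in Ercc1 AL (141 to 146) and 107 in wt AL (95.7 to 99.8). It was the highest axis gene in each library, above 98.0% of rows in Ercc1 DR, 97.7% in Ercc1 AL and 97.6% in wt AL. Its log2 ratio was 0.06 for Ercc1 AL over wt AL, 0.25 for Ercc1 DR over Ercc1 AL and 0.36 for Ercc1 DR over wt AL, and 1.13 as deposited in the last of these.

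**Figure D2:**
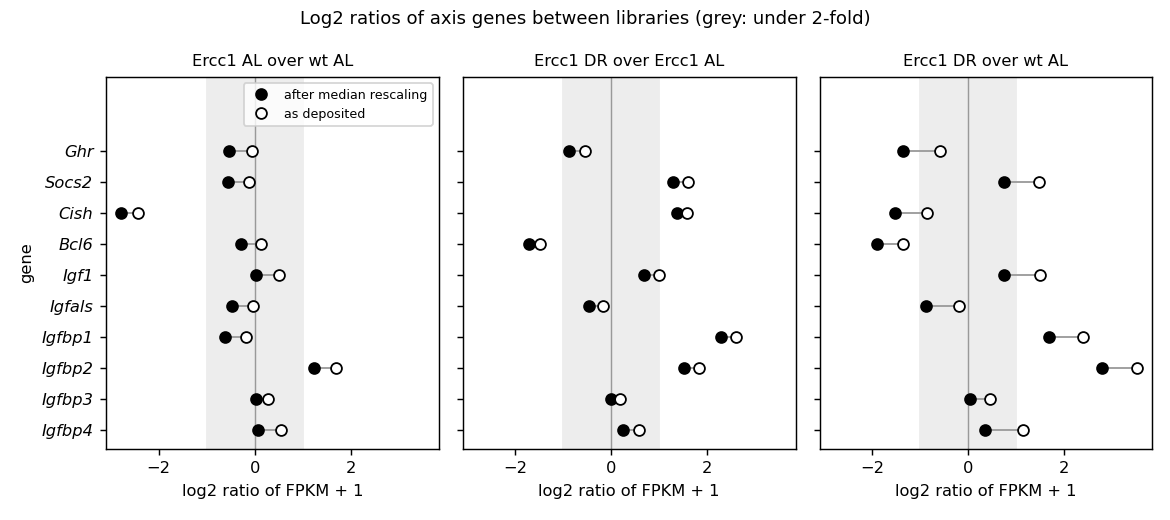
Log2 ratio of FPKM + 1 of each axis gene in the 3 comparisons, with filled points after median rescaling and open points as deposited, and grey for ratios under 2-fold. Igfbp2 lies right of the grey band in all 3 panels, Cish lies left of it at -2.78 in Ercc1 AL over wt AL, and the distance between filled and open points is largest in Ercc1 DR over wt AL.

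For Ercc1 AL over wt AL, 1 of the 10 axis genes was at least 2-fold higher (Igfbp2) and 1 at least 2-fold lower (Cish), beside 2.35% of 12359 rows higher and 4.90% lower. The counts are the same as deposited, where 5.80% of rows were higher and 2.20% lower. The median log2 ratio of the axis genes was -0.38, beside 0.01 over all rows. Most of the axis therefore stood within 2-fold between the freely fed mutant and the wild type, with Ghr, Socs2, Igf1, Igfals, Igfbp1, Igfbp3, Igfbp4 and Bcl6 at log2 ratios between -0.61 and 0.06.

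For Ercc1 DR over Ercc1 AL, 4 axis genes were at least 2-fold higher (Igfbp1, Igfbp2, Cish and Socs2) and 1 lower (Bcl6), beside 3.12% of 12361 rows higher and 12.0% lower. As deposited the counts were again 4 and 1, beside 6.50% and 8.71% of rows. The median log2 ratio was 0.46 for the axis genes and -0.06 for all rows. Cish enters both this comparison and Ercc1 AL over wt AL through the same Ercc1 AL library, where it was low.

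For Ercc1 DR over wt AL, 2 axis genes were at least 2-fold higher (Igfbp1 and Igfbp2) and 3 lower (Ghr, Cish and Bcl6), beside 6.02% of 12127 rows higher and 16.4% lower. As deposited 5 were higher, with Igf1, Igfbp4 and Socs2 added, and 1 was lower, Bcl6, beside 24.0% of rows higher and 8.63% lower. Of all rows past 2-fold, those higher made up 26.8% after rescaling and 73.6% as deposited in this comparison, 20.7% and 42.7% for Ercc1 DR over Ercc1 AL, and 32.5% and 72.5% for Ercc1 AL over wt AL. The median log2 ratio was 0.19 for the axis genes and -0.03 for all rows. Rescaled intervals of the axis genes were apart in 8 of 10 cases for Ercc1 AL over wt AL, 9 for Ercc1 DR over Ercc1 AL and 9 for Ercc1 DR over wt AL, but the same held for 51.7%, 67.8% and 71.8% of rows, so that these intervals alone say little about the axis.

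Ratios of a pair of genes within 1 library need no scaling between libraries. Igf1 stood at 1.44 times the FPKM of Ghr in Ercc1 DR, 0.480 times in Ercc1 AL and 0.322 times in wt AL. Socs2 over Ghr was 0.506 in Ercc1 DR, 0.102 in Ercc1 AL and 0.109 in wt AL. Ligand and inhibitor were thus both high relative to the receptor in the restricted mutant. Cish over Socs2 was 0.250 in Ercc1 DR, 0.167 in Ercc1 AL and 1.50 in wt AL, so that Cish exceeded Socs2 in the wild type alone. Cish over Ghr was 0.127, 0.0170 and 0.163 in that order. Igfals over Igf1 was 0.131 in Ercc1 DR, 0.303 in Ercc1 AL and 0.445 in wt AL, and Bcl6 over Ghr was 0.0345, 0.0966 and 0.0841. The fed mutant lay near the wild type for Socs2 and Bcl6 relative to Ghr, and far below it for Cish.

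The make-up of the binding protein transcripts shifted with Igfbp2 and Igfbp1. Summed over Igfbp1 to Igfbp7, FPKM came to 379 in Ercc1 DR, 199 in Ercc1 AL and 130.2 in wt AL. Igfbp4 made up 62.5% of this sum in Ercc1 DR, 79.4% in Ercc1 AL and 82.4% in wt AL. Igfbp2 made up 25.3%, 13.2% and 5.71%, and Igfbp1 10.4%, 2.87% and 5.09%, in the same order. In Ercc1 DR the share of Igfbp4 was lowest and the shares of Igfbp2 and Igfbp1 highest. Igfbp3 and the other members, Igfbp5, Igfbp6 and Igfbp7, were each at most 4.95% in every library (5.41% from interval midpoints, for Igfbp7 in wt AL).

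**Figure D3:**
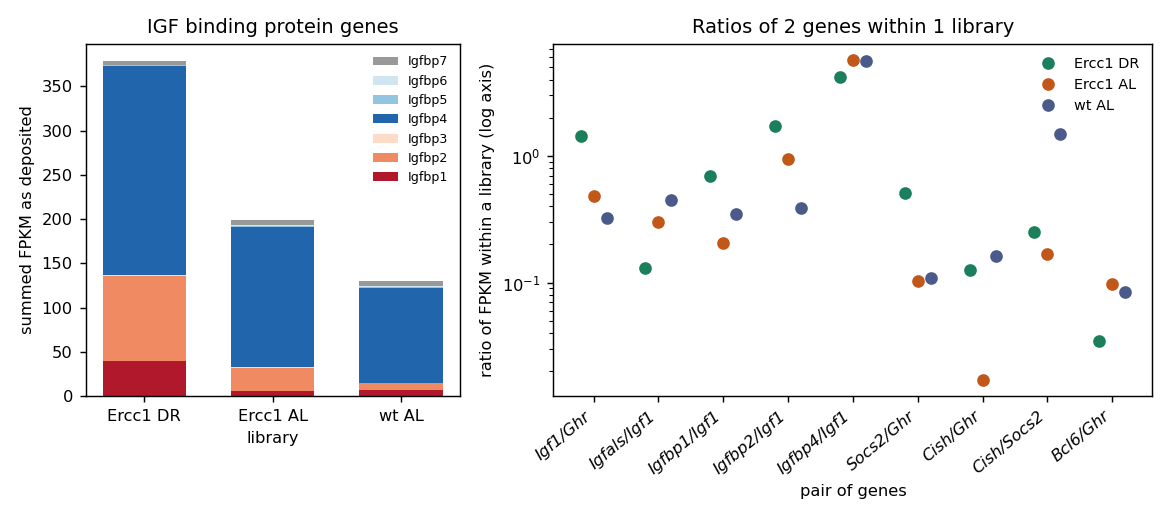
Left, FPKM of Igfbp1 to Igfbp7 stacked for each library, with 379 in Ercc1 DR, 199 in Ercc1 AL and 130.2 in wt AL. Right, ratios of the FPKM of 2 genes within 1 library (log axis), where Cish over Ghr is lowest in Ercc1 AL at 0.0170 and Igf1 over Ghr is highest in Ercc1 DR at 1.44.

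Around the axis, 54 related genes in 5 lists were mostly within 2-fold. For Ercc1 AL over wt AL, none of 47 measured was higher, beside 2.35% of all rows. Lower were 2, Foxa2 and Fgf21, 4.26% of the 47, beside 4.90% of all rows. As deposited neither was past 2-fold (-0.98 and -0.96), and Cebpa was higher at 1.08. For Ercc1 DR over Ercc1 AL, 2 of 48 were higher, Foxa2 and Klb, and 2 lower, Grb2 and Htra1. For Ercc1 DR over wt AL, 2 of 48 were higher, Klb and Insig2, and 4 lower, Grb2, Htra1, Igfbp7 and Fgf21. As deposited 11 were higher and only Fgf21 lower, beside 24.0% of all rows higher and 8.63% lower. The shares of the list, 4.17% higher and 4.17% lower for Ercc1 DR over Ercc1 AL and 4.17% higher and 8.33% lower for Ercc1 DR over wt AL, stood beside 3.12%, 12.0%, 6.02% and 16.4% of all rows. The medians were -0.20, 0.04 and 0.02 on the log2 scale in that order.

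Signalling genes downstream of the receptor, among them Jak2 and Stat5b, were mostly within 2-fold after rescaling. In the list of 16 receptor signalling genes, none was counted as higher in any comparison after rescaling (1 as deposited, for Ercc1 DR over wt AL). Only Grb2, an adaptor that couples receptors to RAS, was counted as lower. Of all rows, 2.35% were higher and 4.90% lower for Ercc1 AL over wt AL. The shares were 3.12% and 12.0% for Ercc1 DR over Ercc1 AL, and 6.02% and 16.4% for Ercc1 DR over wt AL. Beside such shares, few or no calls among 16 or 6 genes say little about these lists. Grb2 had 9.24 FPKM in Ercc1 DR, 20.9 in Ercc1 AL and 16.6 in wt AL, with a log2 ratio of -1.41 for Ercc1 DR over Ercc1 AL. Jak2 had 2.43 FPKM in Ercc1 DR, 1.84 in Ercc1 AL and 2.15 in wt AL, and Stat5b had 3.23, 2.05 and 1.14 FPKM. After rescaling the log2 ratios of Stat5b were between 0.21 and 0.47. The 6 genes of receptor substrates and kinases, among them Irs1 and Irs2, had none past 2-fold in any comparison after rescaling. As deposited 1 was higher, Irs1 for Ercc1 DR over wt AL. Irs1 had 3.34 FPKM in Ercc1 DR, 1.76 in Ercc1 AL and 0.868 in wt AL. Its log2 ratio for Ercc1 DR over wt AL was 0.73 (1.22 as deposited), which the pseudocount understates.

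Of 12 genes for IGF ligand, receptors, further binding proteins and their proteases, 6 were measured for Ercc1 DR over wt AL, and 2 of these were lower after rescaling, beside 16.4% of all rows. As deposited none of the 6 was lower and 1 was higher. The IGF1 receptor gene Igf1r was under 1 FPKM in every library, at 0.433 in Ercc1 DR, 0.690 in Ercc1 AL and 0.568 in wt AL (hepatocytes are known to carry little of this receptor). The insulin receptor gene Insr had 10.9, 5.57 and 4.13 FPKM in the same order, a log2 ratio of 0.56 for Ercc1 DR over Ercc1 AL. Htra1, a secreted serine protease that can cleave IGF binding proteins, had 2.14 FPKM in Ercc1 DR, 6.79 in Ercc1 AL and 3.92 in wt AL, a log2 ratio of -1.57 for Ercc1 DR over Ercc1 AL. Igfbp7, a binding protein of vascular and stromal cells with low affinity for IGF1, had 4.36 FPKM in Ercc1 DR, 5.73 in Ercc1 AL and 6.44 in wt AL, a log2 ratio of -1.13 for Ercc1 DR over wt AL and -0.47 as deposited.

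Summed over 8 genes, markers of liver endothelial cells were, like Igfbp7, lowest in Ercc1 DR. Of these markers only Lyve1 was highest there as deposited, at 1.54 FPKM against 0.985 in Ercc1 AL and 1.05 in wt AL. After rescaling, the log2 ratio of Lyve1 in Ercc1 DR was 0.17 over Ercc1 AL and -0.13 over wt AL. All 8 markers were above 0 FPKM, and their summed FPKM was 13.05 in Ercc1 DR, 19.6 in Ercc1 AL and 20.6 in wt AL. For Ercc1 DR over wt AL after rescaling, 3 of 7 measured were lower and none higher, beside 16.4% of all rows lower. As deposited none of the 7 was past 2-fold, and their median log2 ratio was -0.83 after rescaling and -0.34 as deposited. Summed Kupffer cell markers (7 genes) were 13.6, 20.1 and 15.8 FPKM in Ercc1 DR, Ercc1 AL and wt AL. Stellate cell markers (8 genes) came to 46.1, 42.8 and 27.95 FPKM, the largest part from Dcn at 30.8, 24.5 and 13.5 FPKM. Cholangiocyte markers (5 genes) came to 4.78, 4.44 and 6.52 FPKM, and no marker was at 0. These sums are as deposited. For Ercc1 DR over wt AL after rescaling, the median log2 ratio was -0.87 over 5 measured Kupffer cell markers (-0.25 as deposited). It was -0.25 over 6 stellate cell markers (0.28 as deposited) and -0.71 over 3 cholangiocyte markers (-0.13 as deposited). The part of cell make-up in the value of Igfbp7 was not tested. Hepatocyte markers were abundant in each library, with a sum as deposited over 9 genes of 9724 FPKM in Ercc1 DR, 5005 in Ercc1 AL and 4706 in wt AL. For Ercc1 DR over wt AL their median log2 ratio was 0.29 after rescaling and 1.08 as deposited. After rescaling 6 of the 9 were above 0 and 3 below, from Cps1 at 1.86 to Serpina1c at -1.38. Albumin, the other gene of that list, has the status HIDATA and no estimate in any library.

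Among transcription factors and nutrient regulators, Foxa2 and Klb had the highest ratios of FPKM + 1 for Ercc1 DR over Ercc1 AL. This ranking depends on the pseudocount. The low gene Tox had 1.56 FPKM in Ercc1 DR, 0.272 in Ercc1 AL and 0.183 in wt AL. Its log2 ratio for Ercc1 DR over Ercc1 AL was 0.87 (1.01 as deposited), which the pseudocount understates. Foxa2, a pioneer factor of hepatocytes, had 8.77 FPKM in Ercc1 DR, 2.05 in Ercc1 AL and 5.004 in wt AL. Its log2 ratio was -1.35 for Ercc1 AL over wt AL (-0.98 as deposited), 1.41 for Ercc1 DR over Ercc1 AL and 0.02 for Ercc1 DR over wt AL. Like Cish, it was lowest in Ercc1 AL. Klb, the co-receptor for FGF21 and FGF15, had 10.1 FPKM in Ercc1 DR, 2.34 in Ercc1 AL and 2.10 in wt AL. Fgf21, a fasting hormone of the liver known to blunt growth hormone signalling in mice, had 0.555 FPKM in Ercc1 DR (0.325 to 0.694), 0.932 in Ercc1 AL (0.592 to 1.04) and 2.76 in wt AL (1.91 to 2.84). Klb was highest and Fgf21 lowest in the restricted mutant, although the Fgf21 intervals of both mutant libraries overlapped. Insig2, a sterol-sensing regulator that is induced in fasted liver, had 44.9, 17.6 and 11.1 FPKM, a log2 ratio of 1.17 for Ercc1 DR over wt AL.

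**Figure D4:**
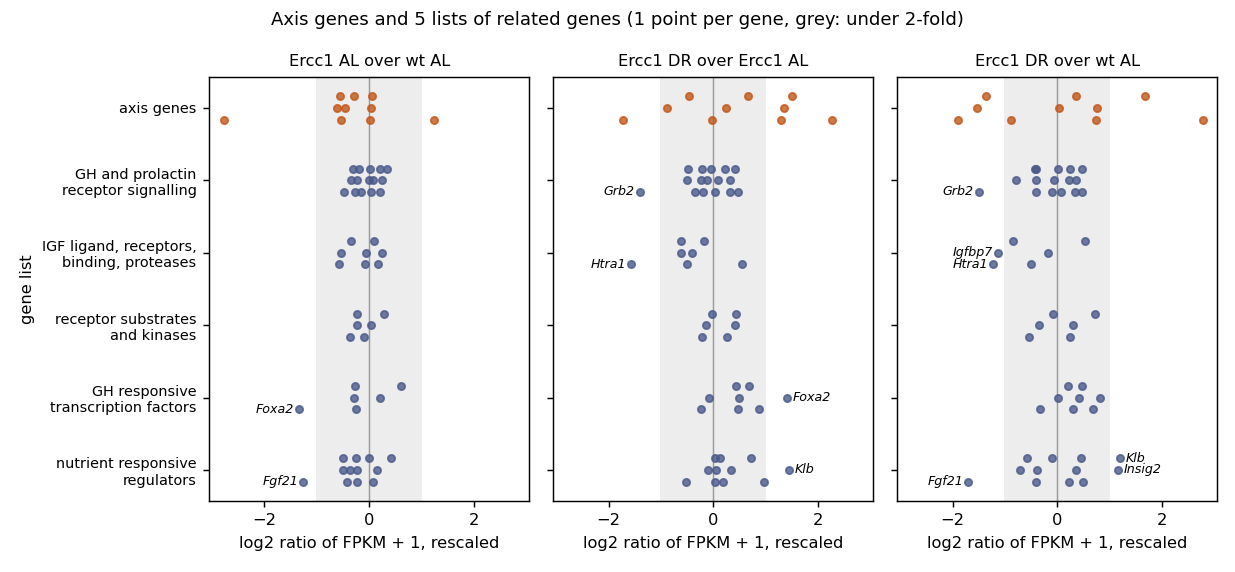
Log2 ratio of FPKM + 1 after rescaling for the 10 axis genes and for the measured genes of 5 related lists in the 3 comparisons, 1 point per gene, with grey for ratios under 2-fold and related genes past it named (GH, growth hormone). Axis genes spread to -2.78 in Ercc1 AL over wt AL and to 2.79 in Ercc1 DR over wt AL, while most related genes lie inside the grey band.

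Genes with a like pattern were sought by the distance between pairs of log2 ratios (Ercc1 AL over wt AL and Ercc1 DR over Ercc1 AL) among 5473 rows with at least 5 FPKM in some library. With 3 libraries, such a pattern holds few data. Igf1 had 520 rows within a distance of 0.25, the nearest being Dcaf6, Mia2 and Rplp0, so its pattern was a common one. Bcl6 had 58 rows, with Rnu11, Acsl6 and Cacng1 nearest, and Socs2 had 17, with Slc16a7, Reps1 and Mrgprh nearest. Cish and Igfbp1 had 1 row each within that distance. For Cish it was Scd1, the stearoyl-CoA desaturase gene, at 325 FPKM in Ercc1 DR, 88.7 in Ercc1 AL and 441 in wt AL, followed by the histone genes Hist1h4d and Hist2h4, whose near-identical copies can share reads. For Igfbp1 it was the cytochrome P450 gene Cyp2c37, at 88.4, 12.6 and 12.2 FPKM in the same order, followed by the short precursors Mir449c and Mir466i.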

How the data were processed

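Total RNA of liver was depleted of ribosomal RNA and sequenced by a TruSeq protocol, per the labels' protocols, and reads were placed on mm10, per the submitters' processing notes. The deposited values are FPKM, made by the authors for 1 library each, with a lower and upper bound and a status, per the file headers. Not given in the sources used here are the quantifying tool, its version, the annotation and strand use. Values with status HIDATA or FAIL were treated as missing. Depth in counts is not given.

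Groups follow the sample titles. Log2 ratios of FPKM + 1 were computed for rows with at least 1 FPKM in either library, after dividing the median log2 shift evenly between the 2 libraries, and counted at 2-fold. Repeated symbols were represented by the row with the highest mean. There was no test, since each group has 1 library. Named were all 10 axis genes, related genes past 2-fold in any comparison, and the 3 nearest patterns of 5 axis genes. Also named, chosen after their values were seen, were other related genes (Jak2, Stat5b, Igf1r, Insr, Irs1, Irs2, Cebpa, Igfbp5, Igfbp6, Tox) and the markers Lyve1, Dcn, Cps1 and Serpina1c. The members, lists and markers were chosen with earlier results of these data known. Alternatives were scaling, pseudocount, minimum, interval midpoints and summed symbols. Start coordinates, 0-based in the files, are given 1-based. The computation was tested on simulated data with equal numbers of genes raised and lowered, which does not check the choice of scaling. Python 3.11.15, pandas 2.3.3 and numpy 2.4.6 were used, with promoters from RefSeq (GRCm38.p6) and strands and overlaps from GENCODE M21.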

Additional observations from a re-analysis of the deposited data

How the results depend on the processing

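Of the 30 log2 ratios of axis genes, 12 were past 2-fold, and none of these changed sign under any of the 7 alternatives. All 12 stayed past 2-fold in the same direction with 75th percentile scaling, a pseudocount of 0.1, interval midpoints, no minimum and summed symbols. At a minimum of 5 FPKM 26 ratios could be had and 11 of 11 stayed, since Cish was then not measured for Ercc1 DR over Ercc1 AL. As deposited 10 of 12 stayed, Ghr and Cish for Ercc1 DR over wt AL were lost, Igf1, Igfbp4 and Socs2 were added there, and 2 small ratios changed sign. Rescaling lowers every one of these ratios, by less for low genes because of the pseudocount. Counts of axis genes past 2-fold stayed within 1.5 times. Related genes past 2-fold numbered 1 as deposited and 1 at a minimum of 5 FPKM, against 2, for Ercc1 AL over wt AL, 7 with a pseudocount of 0.1, against 4, for Ercc1 DR over Ercc1 AL, and 12 as deposited and 10 with a pseudocount of 0.1, against 6, for Ercc1 DR over wt AL. All rows past 2-fold numbered 1466 for Ercc1 AL over wt AL, against 896, and 3085 for Ercc1 DR over Ercc1 AL, against 1865, with a pseudocount of 0.1, and 1767 at a minimum of 5 FPKM, against 2722, for Ercc1 DR over wt AL. No paired analysis was possible because each group has 1 library, and no library could be left out. Low levels such as Igfbp3 and Cish in Ercc1 AL rest on few implied fragments, 109 to 234 and 131.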

Other observations

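The sum of Igfbp1 to Igfbp7 FPKM, set against Igf1 within each library, was 6.75 in Ercc1 DR, 7.20 in Ercc1 AL and 6.79 in wt AL, and 5.97, 6.47 and 6.20 from interval midpoints. This ratio was looked at after the values were seen. Its parts moved more than the whole, with Igfbp4 over Igf1 at 4.22 in Ercc1 DR, 5.72 in Ercc1 AL and 5.59 in wt AL, Igfbp2 over Igf1 at 1.71, 0.948 and 0.388, and Igfbp1 over Igf1 at 0.700, 0.206 and 0.346, in the same order.

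Igfbp2 and Igfbp5, which lie 5593 bases apart on chromosome 1, differed in level. Igfbp5 had 0.685 FPKM in Ercc1 DR, 1.14 in Ercc1 AL and 0.903 in wt AL, whereas Igfbp2 was highest in the restricted mutant. The log2 ratio of Igfbp5 was -0.50 for Ercc1 DR over Ercc1 AL after rescaling, and for Ercc1 AL over wt AL it was -0.08 after rescaling and 0.17 as deposited.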
